A study of Mus musculus with 8 samples.

Results

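The outermost ring of capture spots on 4 mouse heart sections was compared with all the spots inside it. A capture spot is a small disc of barcoded probes under the tissue, and it can hold several cells of different types. A spot over tissue was taken as an edge spot when fewer than 6 of its 6 neighbouring positions were over tissue, and as an interior spot when all 6 were. By this rule 614 of 7160 spots were edge spots, with 150 in the sham section, 170 in the TAC-2w section, 126 in the TAC-4w section and 168 in the TAC-6w section. The other 6546 spots were interior, with 1526, 1893, 1102 and 2025 in the same order.

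The sections came from hearts of male, wild type C57BL/6J mice that were 8 weeks old at surgery. The sham animal had the operation without constriction, and in the TAC animals the transverse aorta was tied partly shut, which overloads the left ventricle with pressure, 2, 4 or 6 weeks before the heart was taken. Each condition has 1 section, cut 10 to 20 µm thick, so no condition could be tested against another. The sections therefore served as the replicates of position, and each section's own edge was set against its own interior, which keeps section, condition and the labelled batches (sham and TAC-2w in batch 1, TAC-4w in 2 and TAC-6w in 3) out of the contrast. Which section belongs to which condition is in doubt, because the outlines that the study pictures under each condition match, by eye, sections deposited under another condition's label. Section names below are the deposited labels and stand only for the section, and the comparison of edge with interior does not depend on them.

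The outer face of the ventricle is covered by the epicardium, a sheet of mesothelial cells on a thin layer of matrix, fibroblasts, vessels and lymphatics. Under it lies the muscle wall, whose outer and inner layers differ in their electrical and stress genes, and the inner face is lined by endocardium. A spot at the rim of a section therefore sits where the epicardium and the outermost muscle are, while a spot of the interior can lie in the wall, along a large vessel or over the blood of a chamber.

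Cardiac muscle transcripts were abundant at both positions, and 12 sarcomere genes summed to 73794 to 105480 CPM at the edge and 74002 to 103670 CPM in the interior. CPM is the number of unique molecular identifiers (UMIs, 1 per captured transcript) of a gene per 1000000 UMIs, here always without the 13 mitochondrial genes. The defining genes of lung, the surfactant genes Sftpc, Sftpa1 and Sftpd, had 0 UMIs at the edge of every section, and Adipoq, the hallmark of fat cells, had 1 UMI at the edge in all. The TAC-4w section stood apart from the rest in Myh7, the slow myosin heavy chain, with 12566 CPM in the interior against 42.8 to 175 CPM in the other 3 sections. Gene counts without it are given at the end.

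Spots of the edge and the interior were not equally deep. The median number of UMIs was 10371 at the edge and 6958 in the interior of the sham section, and 16252.5 and 10759 in the TAC-6w section. In the TAC-2w section the medians were 14262 and 13817, and in the TAC-4w section 15702.5 and 15648.5. Mitochondrial genes took 39.3% to 52.7% of UMIs at the edge and 42.5% to 51.3% in the interior, with the edge higher in the sham and TAC-2w sections and lower in the other 2. No edge spot bordered an enclosed gap, as the map of positions shows, so the edge was the outer contour of the section in every case and the chambers lay among the interior spots. A stray spot or a pair lay apart from the main piece in the TAC-2w and TAC-4w sections (2 spots and 1 spot).

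**Figure D1:**
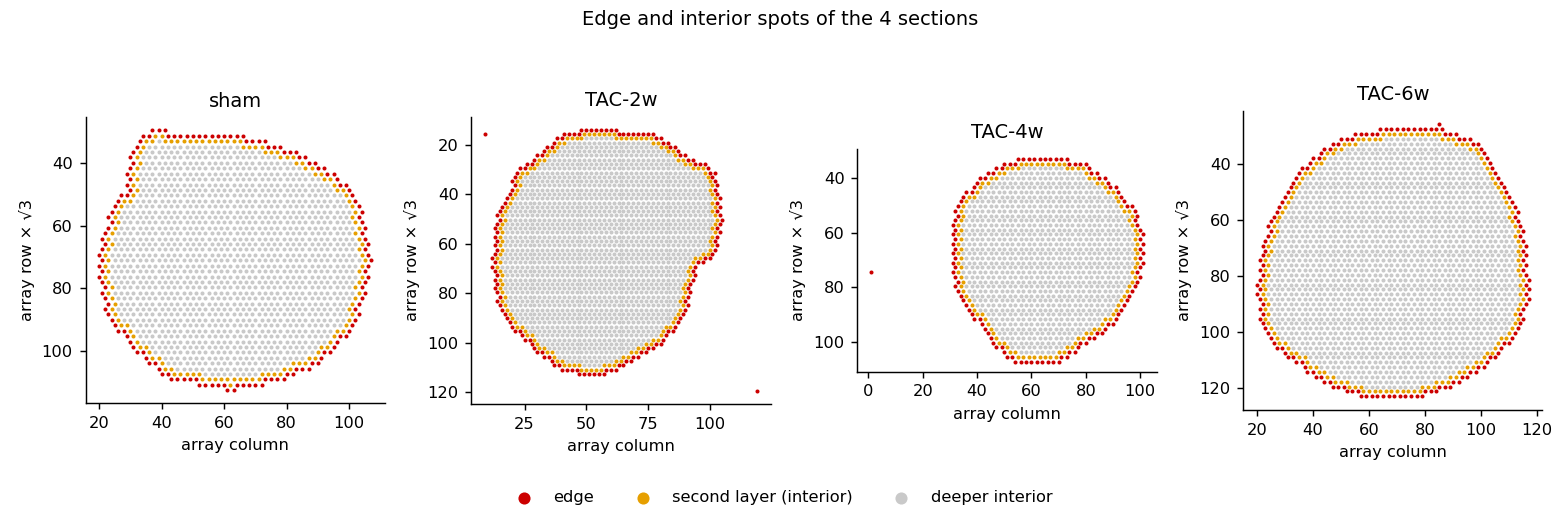
Each panel plots the spots over tissue of 1 section by array column and by array row multiplied by √3, which makes the map to scale, with edge spots in red, the next ring inwards in orange and the rest of the interior in grey. From sham to TAC-6w, the 150, 170, 126 and 168 edge spots trace the outer contour of the section, with no ring inside the tissue.

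The edge differed from the interior in a small set of genes. Markers of the epicardial mesothelium led upwards. Among called genes with a mean of at least 20 CPM, the natriuretic peptide gene Nppa led downwards. Of 11804 genes with at least 20 UMIs in every section, 138 (1.17%) were higher at the edge and 135 (1.14%) lower, at a Benjamini-Hochberg adjusted p under 0.05 in edgeR's quasi-likelihood test with the section as a term and in the same direction in all 4 sections. Another 28 genes passed the adjusted p but not in all sections, and 1629 genes had an unadjusted p under 0.05. Large differences were few, since 31 genes were more than doubled at the edge (log2 ratio above 1) and 20 were more than halved. The median log2 ratio over all genes tested was 0.0019, on a scale set by each sum's own total. All log2 ratios below are edge over interior from this fit, which used the 4 sections (n = 4). The standard error (SE) given with each comes from the test statistic, whose spread is moderated across genes. It does not measure how far apart the ratios of the 4 sections lie. In sums over spots, fewer cells of a type and less RNA per cell cannot be told apart.

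**Figure D2:**
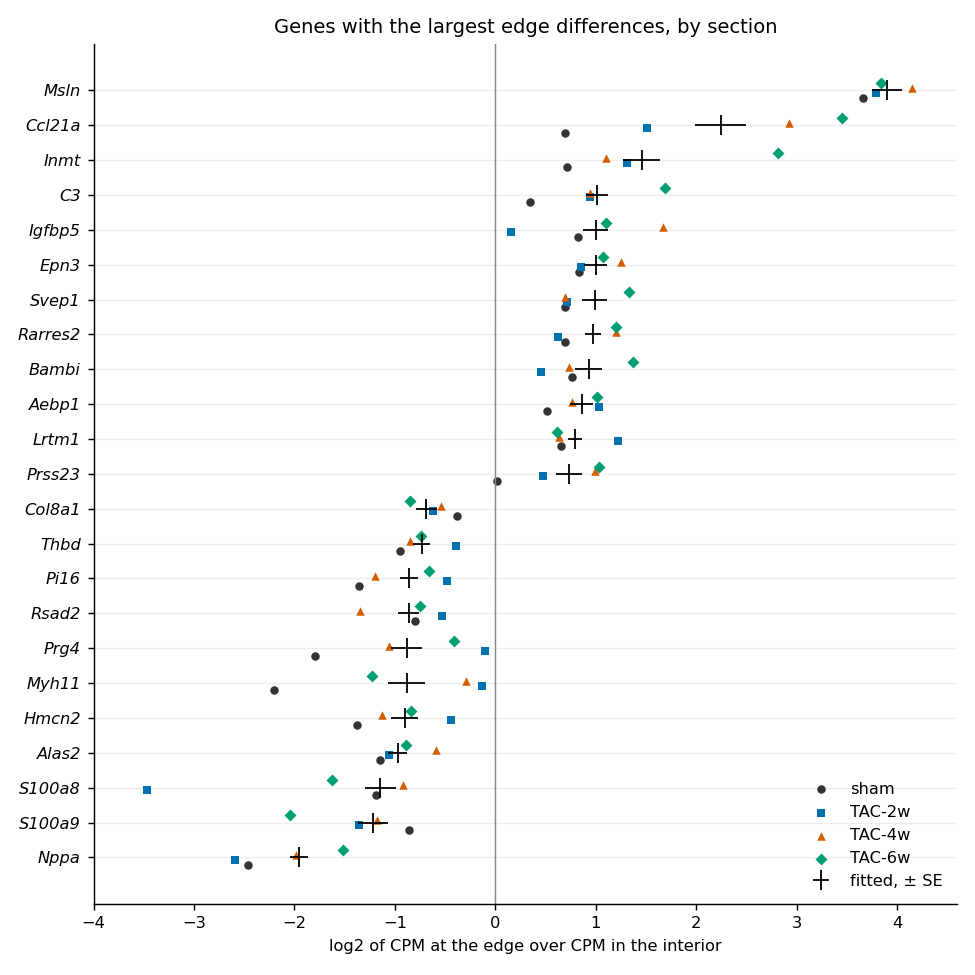
For the 12 genes with the largest log2 ratio and 11 of the 12 with the most negative among called genes with a mean of at least 20 CPM, coloured points give the log2 of edge over interior CPM in each section and black bars the fitted value with its SE. The 4 sections lie close together for Msln (fitted 3.90) and far apart for Ccl21a, whose edge is 1.62 times the interior in the sham section and 10.9 times in the TAC-6w section.

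Msln, which encodes mesothelin, a surface glycoprotein of mesothelial cells, rose most among called genes averaging at least 20 CPM over all edges and interiors. It reached that mean only through its edges, as did Epn3, Svep1, Bambi and Aebp1, whose interiors averaged less than 20 CPM. Among the genes that fell, S100a8, S100a9, Hmcn2, Myh11 and Prg4 reached it only through their interiors. Nkain4, below that mean, had a larger log2 ratio (3.93). Here and below 4 values stand in the order of the sections labelled sham, TAC-2w, TAC-4w, then TAC-6w. Msln reached 24.4, 13.7, 66.0 and 57.3 CPM at the edge of the 4 sections and 1.92, 0.996, 3.72 and 4.00 CPM in their interiors. The lowest edge was thus above the highest interior, and the log2 ratio was 3.90 ± 0.15 (adjusted p = 3.4e-15). A UMI of Msln was seen in 12.7% of the edge spots of the sham section (95% exact binomial interval 7.80% to 19.1%) against 1.38% of its interior spots, and in 43.7% (34.8% to 52.8%) against 4.45% in the TAC-4w section. These intervals cover counting error only. The TAC-2w shares were 12.4% and 1.27%, close to the sham section, and the TAC-6w shares were 38.7% and 3.85%.

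Msln was also graded within the edge. Edge spots with 3 or fewer neighbours over tissue had 37.3, 24.3, 137 and 137 CPM. Those with 5 neighbours, which jut out least, had 6.7, 2.7, 39.3 and 22.3 CPM, lower in every section. The ring just inside had 4.65, 2.07, 11.8 and 13.0 CPM.

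Of the 16 epicardial markers, 8 passed the filter on low counts, and 5 of these rose at the edge while none fell. The median log2 ratio of the 8 was 1.88, where the median of all genes was 0.0019. Upk3b, a uroplakin found on mesothelial cells, had 17.8, 10.1, 55.9 and 39.4 CPM at the edge and 1.28, 0.677, 2.75 and 3.51 CPM inside, which again left the positions without overlap. Its log2 ratio was 3.86 ± 0.18 (adjusted p = 1.5e-13). The filter on low counts takes edge and interior together, and Upk3b passed it in the sham and TAC-2w sections only with its edge UMIs. Nkain4 had a UMI in only 9 interior spots of the sham and 10 of the TAC-2w section, and probably needed its edge UMIs there too. The count of risen markers and their median thus rest in part on genes that passed through the edge. Nkain4, which encodes a partner of the sodium pump, reached 3.93 ± 0.21, and Gpm6a, a membrane glycoprotein of neurons and mesothelium, 2.80 ± 0.19. Cldn15, a claudin of tight junctions, rose by 0.97 ± 0.15, and was not called against interior spots nearest in UMIs (log2 ratio 0.69, adjusted p = 0.15). That setting keeps only 1640289 to 2734713 interior UMIs per section. A call lost there, here and below, need not mean a smaller ratio. The summed level of the 16 markers was 67.5 to 322 CPM at the edge and 20.5 to 46.3 CPM in the interior.

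The other 8 markers were too low to test, and each had a higher CPM at the edge than inside in every section where it was detected. The keratins are an example. Krt19, an intermediate filament protein of simple epithelia, had 4.75, 2.02, 14.4 and 9.49 CPM at the edge and 0.549, 0.398, 1.59 and 0.619 CPM inside. Upk1b, a second uroplakin, had 4, 8, 33 and 48 UMIs at the edge against 2, 1, 19 and 26 in the far larger interiors.

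The other 3 tested markers, transcription factors among them, were not called. Wt1, the transcription factor of the embryonic epicardium, had 7.13, 3.23, 7.22 and 8.76 CPM at the edge and 8.51, 3.98, 4.64 and 9.21 CPM inside (log2 ratio 0.01 ± 0.22, adjusted p = 1). Tbx18, a T-box factor of the same lineage that pericytes also express, gave -0.08 ± 0.31 (adjusted p = 0.94). Both had 8 to 24 or 3 to 18 UMIs per edge, so only a large difference could have been seen. Aldh1a2, the enzyme that makes retinoic acid in the epicardium, gave 0.79 ± 0.25 (adjusted p = 0.091) and was higher at the edge in the TAC-4w and TAC-6w sections only.

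Several of the other genes that rose encode secreted proteins. C3, the central component of complement, had 385, 165, 649.8 and 581 CPM at the edge and 303, 86.1, 337 and 179.7 CPM inside. The edge was higher within each section, by 1.27-fold in the sham and 3.23-fold in the TAC-6w section, although the ranges of the 2 positions overlapped across sections. The log2 ratio was 1.01 ± 0.11 (adjusted p = 2.0e-06). Without the 5 richest spots of each edge, C3 was 1.05, 1.66, 1.72 and 2.92 times the interior. Rarres2, which encodes the chemoattractant chemerin, had 138, 88.6, 236 and 209 CPM at the edge and 85.1, 57.7, 103 and 91.0 CPM inside, a log2 ratio of 0.97 ± 0.08 (adjusted p = 9.5e-09).

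Igfbp5, a binding protein of insulin-like growth factors, reached 114, 62.7, 189 and 163 CPM at the edge and 64.7, 56.4, 59.7 and 76.1 CPM inside. The gap was small in the TAC-2w section and largest in the TAC-4w section, and the log2 ratio was 1.00 ± 0.12 (adjusted p = 1.2e-05). This call was lost in DESeq2, with an adjusted p of 0.13. Without the 5 richest spots of each edge, Igfbp5 was 1.67, 0.963, 2.81 and 1.98 times the interior. Svep1, a large extracellular adhesion protein, stood at 67.2 CPM at the TAC-6w edge and at 13.7 to 23.8 CPM at the other edges, against 8.40 to 26.6 CPM inside (0.99 ± 0.13). Aebp1, a secreted collagen-binding protein, gave 0.86 ± 0.11. Without the 5 richest spots of each edge, Aebp1 was 0.987, 1.59, 1.49 and 1.75 times the interior.

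Inmt, which encodes a methyltransferase of small amines, had a fairly even level along the edges, 44.9 to 65.4 CPM, but an interior that ran from 8.54 CPM in the TAC-6w to 39.8 CPM in the sham section. Its log2 ratio was 1.45 ± 0.19 (adjusted p = 1.7e-05). Bambi, a decoy receptor of the TGF-beta family, gave 0.93 ± 0.13, and Epn3, an endocytic adaptor, gave 1.00 ± 0.12 with 19.7 to 38.0 CPM at the edges and 8.30 to 18.1 CPM inside. Prss23, a secreted serine protease, had nearly the same level at both positions of the sham section (24.4 and 24.1 CPM), and its log2 ratio of 0.74 ± 0.13 was no longer called without the TAC-6w section, against interior spots nearest in UMIs (adjusted p = 0.19), against interior spots 3 to 5 steps in, or with edge spots of 4 or fewer neighbours.

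Among 10 complement genes, 4 rose at the edge and none fell, with a median log2 ratio of 0.24. By section the list's median was -0.18, 0.06, 0.28 and 0.42, so it was below 0 in the sham section. Besides C3 these were C4b, a component of the classical pathway (0.60 ± 0.11), C1ra, a protease of that pathway (0.51 ± 0.10), and Serping1, its inhibitor (0.22 ± 0.06). The C1q chain gene C1qa, made by macrophages, did not change detectably (-0.06 ± 0.09, adjusted p = 0.83). C4b, C1ra and Serping1 lost their calls without the TAC-6w section, C1ra also without the TAC-4w section and Serping1 without the TAC-2w section. In DESeq2 C4b and Serping1 were not called (adjusted p = 0.61 and 0.13). Against interior spots nearest in UMIs, C4b, C1ra and Serping1 were not called (adjusted p = 0.22, 0.23 and 0.62). Of 5 retinoid genes tested of 9 listed, Rarres2 and Aldh1a1, a retinaldehyde dehydrogenase, rose (0.97 and 0.58). Aldh1a1 was not called against interior spots nearest in UMIs (adjusted p = 0.082) or 3 to 5 steps in, where Rarres2 kept its call. The median of the tested retinoid genes was -0.03, 0.37, 0.77 and 0.71 by section.

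Lymphatic markers were raised in part. Ccl21a, the chemokine by which lymphatic endothelium draws dendritic cells, had 105, 50.1, 86.2 and 255 CPM at the edge and 64.6, 17.6, 11.4 and 23.3 CPM inside (2.24 ± 0.25, adjusted p = 3.3e-06). Its transcripts lay in few spots, since the 5 richest edge spots of each section held 54.5%, 55.6%, 50.3% and 46.1% of its edge UMIs. Without those spots the edge was 0.876 times the interior in the sham section and still 1.31, 4.58 and 6.30 times in the other 3, in that order. Against interior spots nearest in UMIs it was not called (adjusted p = 0.14). Mouse genomes carry near-identical copies of this gene, a second entry under its name is listed at 0 in these files, and its count is therefore uncertain.

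Mmrn1, a multimerin of lymphatic endothelium, had 15.5, 14.2, 41.4 and 35.8 CPM at the edge and 8.51, 3.23, 4.09 and 4.13 CPM inside, without overlap (2.52 ± 0.24, adjusted p = 2.5e-07). Reln, the glycoprotein reelin, gave 1.85 ± 0.23, and was not called against interior spots nearest in UMIs (adjusted p = 0.10). The other 4 of the 7 members tested had no call. Prox1, the transcription factor that sets lymphatic identity and is also expressed in cardiomyocytes, gave 0.03 ± 0.11, and Lyve1, a hyaluronan receptor that resident macrophages share, gave -0.18 ± 0.12. The 7 had a median log2 ratio of 0.94. By section their median was -0.0018, 0.22, 1.66 and 1.01, so the list was level in the sham section.

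All 4 MHC class II genes, which present antigen to helper T cells, were slightly higher at the edge, with log2 ratios from 0.28 for Cd74, the invariant chain, to 0.38 for H2-Eb1. H2-Aa had 143, 124, 354 and 349 CPM at the edge and 129.7, 91.0, 296 and 242 CPM inside, so that the sections differed more among themselves than the positions did. Against interior spots of the outer wall alone, 3 to 5 steps from the outside, the 4 ratios fell to between -0.01 and 0.08 and none was called (adjusted p from 0.66 to 0.97), nor was any against interior spots nearest in UMIs (0.18 to 0.52). By depth the class II sum was at 669 CPM in the outermost ring of the sham section, 1000.5 CPM in the next and 386 CPM in spots 11 or more steps in. None of 9 macrophage markers was called, with a median of -0.06. By section their median was -0.78, -0.10, 0.05 and 0.08. In the sham section the 9 summed to 439 CPM at the edge and 741 CPM inside.

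**Figure D3:**
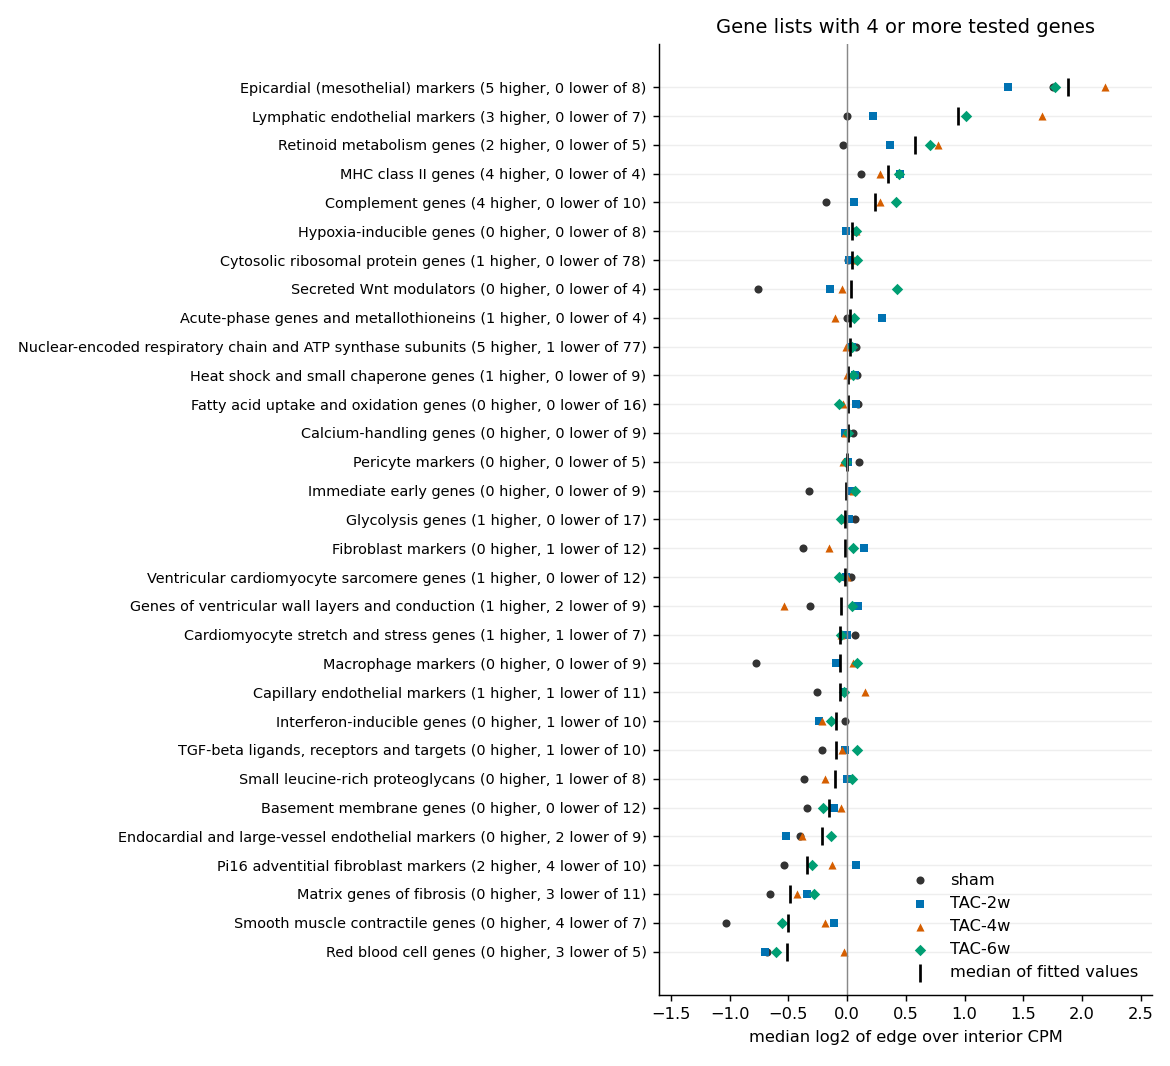
For each gene list with 4 or more tested members, coloured points give the median log2 of edge over interior CPM in each section and black bars the median of the fitted values, with the calls of the list in its label. Epicardial markers stand highest at a fitted median of 1.88 and red blood cell genes lowest at -0.51, while the lists of sarcomere, calcium-handling and metabolic genes sit near 0.

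Some cardiomyocyte genes were higher at the edge and others lower, while the sarcomere list had a median near 0. Lrtm1, a leucine-rich repeat membrane protein of muscle, had 342, 338, 163 and 324 CPM at the edge and 217, 145, 105 and 212 CPM inside (0.79 ± 0.07, adjusted p = 6.8e-08). It exceeded the interior in all 32 of the 45-degree sectors into which the 4 rims were cut, the only one of the 31 genes examined by sector that did. It did not stop at the rim. In the TAC-2w section it went from 338 CPM in the outermost ring through 288 and 255 CPM in rings 2 and 3. At 6 to 10 steps it had 132 CPM, and deeper 37.5 CPM. Against interior spots 3 to 5 steps in, its log2 ratio was smaller, at 0.29, and still called.

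Acta1, the skeletal muscle actin that the overloaded ventricle re-expresses, was higher at the edge by 0.59 ± 0.08 (adjusted p = 3.5e-05). Its values were 395, 585, 3310.5 and 6279 CPM at the edge and 201, 328, 2087 and 6008 CPM inside. The edge was 1.97-fold the interior in the sham section but 1.05-fold in the TAC-6w section, where the level was highest, and the call was lost in DESeq2 (adjusted p = 0.15). Of 12 sarcomere genes only Tnnt2, cardiac troponin T, was called, by 0.19 ± 0.03, and the list's median was -0.02. Hspb7, a small chaperone of muscle, rose by 0.30 ± 0.04.

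Nppa, which encodes atrial natriuretic peptide, gave the deepest fall among genes of at least 20 CPM. It had 44.6, 42.9, 915 and 389.5 CPM at the edge and 246, 259, 3626 and 1113 CPM inside, a log2 ratio of -1.96 ± 0.09 (adjusted p = 1.1e-13). The edge was thus 0.165 to 0.350 times the interior, and all 32 rim sectors lay under their own interior. Against interior spots 3 to 5 steps in, the log2 ratio of Nppa was smaller, at -1.02, and still called. The level rose inwards, in the TAC-2w section from 42.9 CPM in the outermost ring to 89.6 CPM at 4 to 5 steps and 563 CPM at 11 or more. In the sham section it jumped between ring 3 (80.1 CPM) and rings 4 to 5 (311 CPM).

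Nppb, the sister peptide gene, did not fall detectably, with 116, 50.9, 579 and 297 CPM at the edge and 142, 68.1, 643 and 307 CPM inside (-0.18 ± 0.05, adjusted p = 0.08). Myh7 gave -0.09 ± 0.06 (adjusted p = 0.55). Of the 7 stress genes listed, 1 rose (Acta1) and 1 fell (Nppa).

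**Figure D4:**
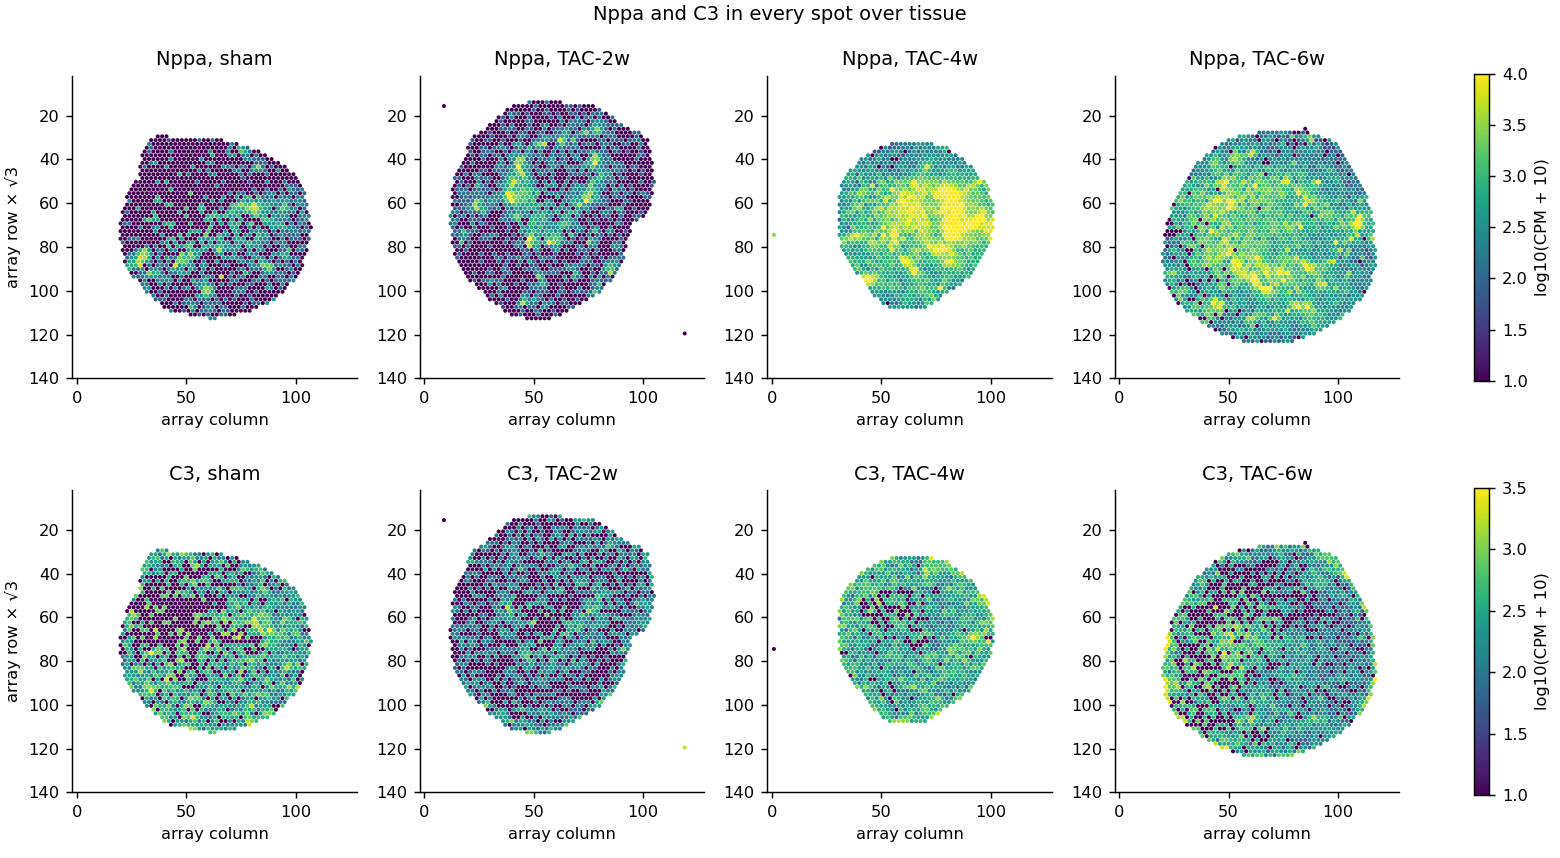
Every spot over tissue is coloured by log10 of its CPM plus 10 for Nppa (top) and C3 (bottom), at its array position, in the 4 sections. Nppa is patchy and sits inside the section with a low rim (42.9 to 915 CPM against 259 to 3626 CPM in the TAC-2w and TAC-4w sections), and C3 is brightest along stretches of the rim in the TAC-6w section (581 CPM at the edge against 179.7 CPM inside).

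Among genes of wall layers, Irx5, a homeobox factor that is higher on the endocardial side of the mouse ventricle, fell (-2.10 ± 0.34), with 1.19, 1.21, 2.89 and 1.10 CPM at the edge and 4.49, 11.3, 5.19 and 5.33 CPM inside. At the sham, TAC-2w and TAC-6w edges this was 3 UMIs or fewer, since 3 UMIs make 1.78, 1.21 and 1.10 CPM there. Irx5 was not tested against interior spots nearest in UMIs or 3 to 5 steps in. Irx4, a ventricular homeobox factor, rose by 0.51 ± 0.14, and this call was lost when any 1 section was left out. Kcnd2, a channel of the transient outward potassium current, passed the adjusted p but was higher at the edge in 3 sections of 4 (0.54 ± 0.14).

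Matrix and adventitial fibroblast genes were lower at the edge more often than higher. Pi16, a marker of fibroblasts around vessels, had 44.6, 46.5, 43.4 and 107 CPM at the edge and 114, 64.9, 99.2 and 168 CPM inside (-0.86 ± 0.09, adjusted p = 2.1e-06). Of 10 markers of that cell state 4 fell (Pi16, Mfap5, Ly6a and Fbn1) and 2 rose. The pair that rose was Dpp4, a surface peptidase, at 2.03 ± 0.25 with at least 4.04 CPM at every edge against at most 2.56 CPM inside, and Igfbp6, a growth factor binding protein, at 0.71 ± 0.10. The list thus split by gene, with a median of -0.35.

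Among 11 tested matrix genes of fibrosis 3 fell and none rose, with a median log2 ratio of -0.49. These were Comp, cartilage oligomeric matrix protein, with 0, 2, 2 and 9 UMIs at the edge (-2.25 ± 0.35), Ltbp2, which binds microfibrils (-1.20 ± 0.24), and Fn1, fibronectin (-0.39 ± 0.09). Postn, the matricellular protein periostin of activated fibroblasts, was lower at the edge in 3 sections and higher in the TAC-2w section (35.6 against 25.8 CPM), and so was not called. Aspn, a small proteoglycan, fell by 0.68 on the log2 scale, with an SE of 0.09. Hmcn2, a hemicentin of basement membranes (-0.90 ± 0.13), Col8a1, a short-chain collagen of vessels (-0.69 ± 0.10), and Prg4, the lubricant lubricin (-0.88 ± 0.16), fell as well. Prg4 lost its call without the TAC-4w section and Col8a1 without the TAC-6w section. In DESeq2 Ltbp2 and Fn1 were not called (adjusted p = 0.065 and 0.10), nor was Mfap5 (0.48). Against interior spots 3 to 5 steps in, Mfap5, Fbn1 and Fn1 were not called (adjusted p = 0.23, 0.50 and 0.25). Pi16, Ly6a and Aspn kept their calls there, and Comp and Ltbp2 were not tested. Mfap5 and Fn1 were also not called against interior spots nearest in UMIs (adjusted p = 0.057 and 0.12).

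Of 12 general fibroblast markers only Gsn, the actin-severing protein gelsolin, fell, from 2326, 1644, 2251 and 2090.1 CPM inside to 1377, 1422, 1795 and 2043 CPM at the edge (-0.33 ± 0.06), and it lost its call in DESeq2 (adjusted p = 0.60). Col1a1, a chain of type I collagen, gave 0.00 ± 0.08 and Pdgfra, the receptor that marks the lineage, -0.02 ± 0.11. The list's median was -0.02.

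Several genes of vessel walls and blood were lower at the edge. Myh11, the myosin of smooth muscle, had 12.5, 20.2, 26.0 and 12.4 CPM at the edge and 57.7, 22.2, 31.9 and 29.0 CPM inside (-0.88 ± 0.18, adjusted p = 0.0064). The gap was wide in the sham section and narrow in the TAC-2w section, and the call was lost without the TAC-6w section and in DESeq2 (adjusted p = 0.69). With Tagln, Acta2 and Cnn1, 4 of 7 contractile genes of smooth muscle fell, at a list median of -0.50, and all 4 were lost in those same settings. Pericyte markers, by contrast, had no call among 5 and a median of 0.00.

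Alas2, the enzyme that starts haem synthesis in red cells, had 36.9, 36.4, 15.9 and 24.8 CPM at the edge and 81.6, 75.6, 24.0 and 46.0 CPM inside (-0.97 ± 0.10, adjusted p = 3.6e-07). The haemoglobin genes Hba-a1 and Hba-a2 fell by 0.51 and 0.55, with almost no gap in the TAC-4w section, and were not called in DESeq2 (adjusted p = 0.12 and 0.052). Of 5 red cell genes 3 fell and none rose. The neutrophil genes S100a8 and S100a9, whose products pair as calprotectin, fell by 1.15 and 1.22, which made 2 of 3 tested neutrophil genes. S100a8 was not called in DESeq2 (adjusted p = 0.10) or S100a9 against interior spots nearest in UMIs, where it was not lower in all sections. S100a8 had 1 UMI at the TAC-2w edge, and 5 spots held 94.7% of its UMIs at the sham edge. S100a9 had 28, 5, 61 and 9 UMIs at the edges, and 14 of the 32 rim sectors had none. Left out of the totals, the haemoglobin genes changed the counts of calls to 129 higher and 152 lower.

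Endothelial genes were mixed. Thbd, thrombomodulin, the anticoagulant receptor of vessel linings, fell by 0.73 with an SE of 0.08, from 101, 54.0, 84.2 and 92.3 CPM inside to 52.3, 41.2, 46.7 and 55.1 CPM at the edge. Of 9 endocardial and large-vessel markers, Cytl1, a small secreted protein, and Emcn, the sialomucin endomucin, fell (-1.91 ± 0.23 and -0.39 ± 0.07) and none rose. Of 11 capillary markers 1 rose, Gpihbp1, which anchors lipoprotein lipase (0.18 ± 0.04), and 1 fell, Tie1, a receptor kinase (-0.32 ± 0.07), while Pecam1 gave -0.08 ± 0.06. Gpihbp1 and Tie1 were not called in DESeq2 (adjusted p = 0.12 and 0.15). Rsad2, the interferon-inducible antiviral enzyme viperin, fell by 0.86 with an SE of 0.10, and Ifit1 was the only called gene of the 10 interferon-inducible genes on the list (-0.83 ± 0.16).

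Metabolic and housekeeping lists stayed near the median of all genes. Of 77 nuclear-encoded respiratory chain and ATP synthase genes 5 were higher and 1 lower, all by 0.20 or less, at a median of 0.03. Over all genes tested 1.17% were higher and 1.14% lower. None of these respiratory calls held against interior spots nearest in UMIs, where the 5 higher genes still had log2 ratios of 0.12 to 0.17 and Atp5g3, the lower one, -0.12. In DESeq2 only the call of Ndufb4 held (adjusted p = 0.021). Of 78 ribosomal protein genes 1 was higher, and the median was 0.04. No call was made among 16 genes of fatty acid use, 9 of calcium handling, 9 immediate early genes, 8 hypoxia-inducible genes or 12 basement membrane genes, and 1 of 17 glycolysis genes, the glucose transporter gene Slc2a4, was higher (0.20 ± 0.04, adjusted p = 0.064 in DESeq2). Basement membrane genes had a median of -0.16, with all 12 members below 0.

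Some further called genes were picked out after their values were seen. Slc39a8, a zinc and manganese transporter, had 5.94, 2.83, 19.3 and 19.0 CPM at the edge and 1.01, 0.757, 1.34 and 1.65 CPM inside (3.25 ± 0.27). In the sham and TAC-2w sections it passed the filter on low counts only with its edge UMIs. C2, the complement protease partner of C4, gave 2.18 ± 0.25. On the lower side, Irx2 and Irx1, homeobox genes of the same family as Irx5, gave -2.48 ± 0.38 and -1.31 ± 0.26, beside Irx5 lower and Irx4 higher, while Irx3 (-0.71) passed the adjusted p but was not lower in all sections. Hand2, a basic helix-loop-helix factor of heart development, rose by 0.49 ± 0.07, from 43.5 to 71.6 CPM inside to 54.6 to 103 CPM at the edge.

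Some genes too low to test also had more UMIs per total at the edge. Myl7, the atrial myosin light chain, had 7, 8, 39 and 20 UMIs at the edge and 2, 3, 12 and 12 in the whole interior, or 4.16, 3.23, 18.8 and 7.30 CPM against 0.183, 0.119, 0.732 and 0.495 CPM. The other atrial genes did not accompany it, since Sln and Bmp10 together had 1 UMI at the 4 edges. Mast cell genes, likewise under the filter, had a summed level of 16.0, 10.9, 8.67 and 36.5 CPM at the edge and 6.13, 8.44, 2.07 and 15.5 CPM inside, although rings 2 and 3 of the TAC-2w section had 26.9 and 22.3 CPM, above its edge. Fmod, the proteoglycan fibromodulin, had 4.04 to 16.8 CPM at the edge and 0.358 to 3.59 CPM inside. None of these was tested. Of the remaining lists, Lcn2 rose among 4 tested acute-phase and metallothionein genes (0.55 ± 0.15) and Mbp, a myelin protein, among 3 tested Schwann cell genes (1.33 ± 0.25). Pf4 was the only call among 2 tested platelet genes (-0.41 ± 0.10), Aspn among 8 proteoglycans and Hspb7 among 9 heat shock genes. Pf4 was not called in DESeq2 (adjusted p = 0.070), with voom, against interior spots nearest in UMIs, or without the sham, the TAC-2w or the TAC-4w section. Lcn2 was not called with voom, against interior spots nearest in UMIs (adjusted p = 0.30), or without the TAC-2w or the TAC-6w section. No call was made among 4 tested secreted Wnt modulators or the 1 tested gene each of the fat cell, B cell, atrial and skeletal muscle lists, and no T cell, mast cell or lung gene passed the filter.

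The next question was how far inwards these differences reach. The second layer, the ring of interior spots that touch the edge (144, 161, 119 and 161 spots), was compared with the deeper interior, a contrast that holds no edge spot but shares the interior with the first. Of 11603 genes, 62 (0.534%) were higher in the second layer and 103 (0.888%) lower, by the same rule. With TMM factors the split became 115 higher and 88 lower, and with DESeq2 size factors 133 and 88, so the balance between the directions depended on the scale.

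Msln was higher in the second layer too, by 2.03 ± 0.26 (adjusted p = 1.1e-06), with 4.65, 2.07, 11.8 and 13.0 CPM there. Lrtm1 gave 0.78 ± 0.06 and Nppa -1.59 ± 0.04 in this contrast, beside 0.79 and -1.96 at the edge. The MHC class II genes were all higher in the second layer, by 0.39 to 0.47. Matrix genes of fibrosis were lower there in 6 of 11, proteoglycans in 3 of 8 and basement membrane genes in 3 of 12. At the edge those counts were 3, 1 and 0. The list medians differed less, at -0.37, -0.15 and -0.16 in the second layer beside -0.49, -0.10 and -0.16 at the edge. The counts thus do not show a deeper fall in the second layer. The fibrosis list summed to 219, 190, 457 and 625 CPM at the edge. In the second layer it summed to 245, 179, 443 and 569 CPM. Rarres2 (0.13, adjusted p = 0.45), Igfbp5 (0.25, adjusted p = 0.19) and Svep1 (0.12, adjusted p = 0.84) were not called there. In the sham section Rarres2 went from 138 CPM in the outermost ring to 81.7 CPM in the second and 82.9 CPM at 11 or more steps.

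**Figure D5:**
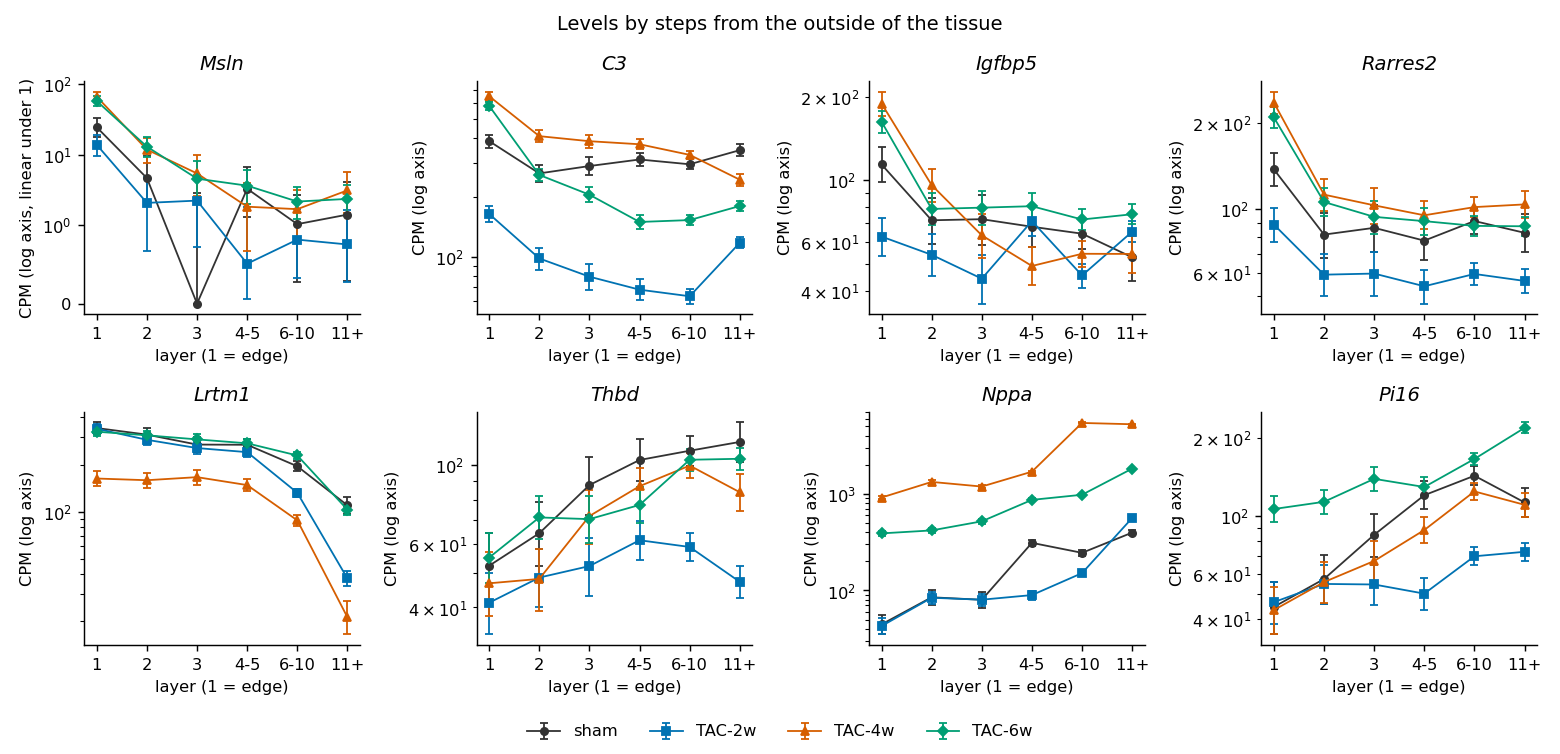
CPM of 8 genes by steps from the outside (layer 1 is the edge, layer 2 the second layer) in the 4 sections, with 95% exact Poisson intervals that cover counting error only. Msln and Rarres2 drop within the first step, Lrtm1 declines over the whole depth of the wall (342 to 110 CPM in the sham section), and Nppa climbs inwards.

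Depth profiles differed between genes. A sharp step marked Msln, whose sham level was 24.4 CPM in the first ring and 4.65 CPM in ring 2. Ring 3 had 0 of 1298230 UMIs, where 3 UMIs would make 2.31 CPM. Msln was not absent deeper, since only 7 of its 21 UMIs in the sham interior lay in ring 2. A slope marked Lrtm1 and, in the other direction, Nppa. Pi16 also climbed, from 43.4 CPM at the TAC-4w rim to 125 CPM at 6 to 10 steps. The most exposed edge spots did not always follow these slopes. With 3 or fewer neighbours Pi16 had 65.8, 51.7, 65.5 and 132 CPM, against 57.1, 54.7, 55.6 and 114 CPM in the second layer. Nppa had 48.3, 36.5, 757 and 799 CPM in such spots, against 85.0, 84.1, 1327 and 418 CPM in the second layer.

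The rim was not uniform along its length. Msln exceeded its interior in 31 of the 32 sectors and ranged in the TAC-4w section from 36.2 to 108 CPM. C3 exceeded it in 25 sectors, in all 8 of the TAC-4w and of the TAC-6w section but in 4 of 8 of the sham section. Sector medians of UMIs per spot ran from 2948 to 24820 in the TAC-6w section, so single sectors differ widely in precision. Igfbp5 was above the interior in 27 sectors and Rarres2 in 29.

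The 4 sections are set side by side as sections, without a test of condition and with the doubt about their labels in mind. The summed level of epicardial genes at the edges labelled TAC-4w and TAC-6w lay above that at the edges labelled sham and TAC-2w, with 322 and 246 against 129 and 67.5 CPM for the list, and this split cannot be told apart from batch, since the lower pair is batch 1. The ratios to the interior were 7.01 and 5.30 against 3.91 and 3.29. For Msln the edge was 12.7, 13.8, 17.7 and 14.3 times the interior from sham to TAC-6w, with 95% counting intervals that overlap. The 5 richest spots held 53.7% of Msln's UMIs at the sham edge, and without the 5 richest spots of each edge the ratios were 6.75, 9.56, 14.2 and 12.4. C3 gave 1.27, 1.92, 1.93 and 3.23.

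The number of calls leaned on which sections were used. Without the TAC-6w section 66 genes were higher and 82 lower, and without the TAC-4w section 103 and 92. With each edge spot set against the interior spot nearest to it in UMIs, 30 were higher and 40 lower of 9201 tested. The interior sums are far smaller in that setting, so fewer differences can be called. Among genes that lost their call there, some ratios stayed close (C1ra 0.46 beside 0.51) and others shrank (Ccl21a 1.26 beside 2.24).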

How the data were processed

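Spatial RNA was measured on 4 heart sections with Visium arrays. The authors aligned the reads to mm10 with Space Ranger (1.2.0 in the matrix headers, 1.3.1 in the processing notes) and deposited UMI counts per gene and spot for spots under tissue, with 4992 array positions per section. Single-cell libraries of the series were not used here. Counts of 32285 genes were summed over the edge and the interior of each section, which gave 8 sums, with edge totals of 1682511 to 2739396 UMIs and interior totals of 10922560 to 25110918 UMIs without 13 mitochondrial genes. These totals set the scale, with no further factors.

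Genes with at least 20 UMIs in each section were tested with edgeR 4.0.16 (R 4.3.3, quasi-likelihood test, section and position as terms, 2-sided, Benjamini-Hochberg adjustment over all genes). A call needed an adjusted p under 0.05 and the same direction in all 4 sections. The 12 called genes with the largest change in each direction among those of at least 20 mean CPM were named, along with the called members of 41 gene lists. The members and lists were chosen with earlier results of these data known. An exact sign-flip test over 4 sections cannot go below p = 0.125, so the test rests on a spread that is moderated across genes. Each section has another condition, so differences between conditions enter this spread. In simulated data for 11639 genes the fit recovered 100% of 100 genes changed 2-fold and 97% of 100 changed 1.5-fold, and called 9 unchanged genes. The changed genes had a mean of at least 20 CPM and the same fold in every section, with the spread that edgeR estimated. Recovery was thus not measured for rarer genes or for folds that differ between sections. DESeq2 1.42.0 and limma 3.58.1 served as alternatives, with other scales, filters, spot choices and left-out sections. Results on 2 items are not reported here.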

Additional observations from a re-analysis of the deposited data

Results flagged for a closer look

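C1s1, which encodes a protease of the classical complement pathway, was lower at the edge than inside in the sham section, with a ratio of 0.7294, and higher in all 3 TAC sections (35.7 against 48.9 CPM in the sham section and 43.7, 76.6 and 64.2 against 30.6, 61.2 and 49.0 CPM in those labelled TAC). Myh6, the fast myosin heavy chain of the ventricle, was slightly higher at the edge in the sham section, with a ratio of 1.031, and slightly lower in all 3 TAC sections. Each was flagged because the sham section moved one way and all TAC sections the other. With 1 sham section the difference was not tested. Of 11804 genes, 1140 were higher and 1279 lower at the edge in all 4 sections, so sections often differed in direction. The share of genes with this split is not given here, so neither gene is shown to be unusual. The conditions here are the deposited labels, whose match to the sections is in doubt. Neither gene was called over the 4 sections in edgeR (adjusted p = 0.23 and 0.80).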

How the results depend on the processing

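The 138 higher and 135 lower genes became 62 and 47 with DESeq2, 3 and 1 without the section term, 30 and 40 against the interior spots nearest in UMIs (9201 genes tested), and 71 and 68 with the mean over spots in limma. Without the filter on low counts 237 genes were higher, and with mitochondrial genes kept in the totals 80 were lower. Against interior spots 3 to 5 steps from the outside, chosen after seeing the data, the counts were 67 and 59. Leaving out 1 section gave 66 to 158 higher and 82 to 119 lower, and the lowest of both came without the TAC-6w section. For the second layer, 115 genes were higher with TMM factors and 133 with DESeq2 size factors against 62 as reported, and leaving out 1 section gave 32 to 49 higher (38 without TAC-2w, 32 without TAC-6w) and 51 to 109 lower (51 without TAC-6w). The cause was not tested. All other counts for these comparisons stayed within 1.5 times. Of 527 values of the 24 genes chosen by size of change under the alternatives, 489 kept their side of the threshold, 38 lost the call and 0 changed direction. Of 441 list medians, 432 moved by less than the spread between sections and 9 by more. The test as reported already pairs each edge with the interior of its own section through the section term, and the values without that term are given above. No paired analysis was possible between conditions because each has 1 section. The planned split of the edge into outer and inner rims could not be fitted, since no edge spot bordered an enclosed gap. Depth limits the rare genes most, as with Wt1 at 8 to 24 UMIs per edge.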
